A study of Mus musculus with 16 samples.

Results

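The genes described here encode the machinery that imports, folds, trims and degrades mitochondrial proteins. They were taken by name, as every gene whose symbol in the platform annotation starts with Tomm or Timm, plus 14 listed chaperones, processing peptidases, proteases and prohibitins, of which 12 were named by that annotation. Hspd1 and Clpx were not analysed here. This gave 35 genes, 9 Tomm, 14 Timm and 12 listed genes, of 17097 genes with a probe set of their own. Each gene is represented by its probe set with the highest mean over 16 arrays. The study compared ventricular cardiomyocytes of GPER-knockout (GPER KO) and wild type (intact) mice by hybridising RNA of each mouse to an Affymetrix MG-430 PM array strip, with 4 mice in each of 4 groups. The groups were GPER KO and intact mice of each sex, all adult mice with no treatment named, with an age of 15 weeks in the labels, whereas the methods of the study give an older age. GPER is the G protein-coupled estrogen receptor, and the study text describes its deletion as specific to cardiomyocytes. How the deletion was made, with which promoter and at which age, is not given in the sources used here. The cells were released from the heart with collagenase, filtered and spun but not sorted, so RNA of other cardiac cells could be present. Values are log2 expression values per probe set as deposited, and a difference of such values is a log2 fold change.

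Nearly all mitochondrial proteins are encoded in the nucleus, made in the cytosol and carried across the mitochondrial membranes. The TOM complex is the gate of the outer membrane, small TIM chaperones guide hydrophobic proteins through the intermembrane space, and the TIM23 and TIM22 complexes pass proteins into the matrix and the inner membrane. In the matrix the Hsp70 motor pulls the chain in, processing peptidases cut off the targeting signal, chaperonins fold the product, and proteases such as LONP1 and CLPP remove damaged proteins. Cardiomyocytes are packed with mitochondria and depend on this supply.

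The arrays resembled each other closely, with medians of 3.47 to 3.51 over all probe sets and a lowest correlation of 0.982 between any pair of arrays. Gper1, the deleted gene, lay between 2.64 and 3.11 on all 16 arrays, with means of 2.79 and 2.87 in GPER KO and intact females and of 2.78 and 2.77 in GPER KO and intact males. Its probe set is dim, and where it lies relative to the deleted part is not known here, so it checks nothing about the genotype labels. Cardiomyocyte markers were at or above percentile 99.1 of the probe sets, for 7 of 8 listed markers that were measured. Female intact 421 and 422 stood apart from the other female intact mice for several genes. Many of the counts and differences below are also given without them, but not all that move. Of the 35 genes, 34 passed a filter on dim genes, Timm8a2 being the exception, and no filter was applied to the results below.

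Timm10, which encodes a small TIM chaperone, was the only one of the 35 genes to pass the test between the genotypes. It was higher in GPER KO than in intact cardiomyocytes, by 30.5% in males and 24.1% over both sexes, and all 8 GPER KO arrays lay above all 8 intact arrays. The other 34 genes did not pass the test in either sex. Within the list, 24 of 35 genes lay below intact in GPER KO females and 24 of 35 lay above intact in GPER KO males, most of them by small amounts. Of all genes, 58.8% lay below in females and 56.5% above in males. Fewer cardiomyocytes in a preparation and less RNA of a gene per cardiomyocyte cannot be told apart in these bulk samples.

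The tests were read from a fit over all genes with limma, with Benjamini-Hochberg adjustment over 17097 genes and a threshold of 0.05 on the adjusted p. In females, 0 of 35 genes passed, against 0.281% of all genes (48 genes). In males, 1 of 35 passed, against 0.62% of all genes. For the mean of both sexes, 1 of 35 passed, against 1.36% of all genes. Before adjustment, 8 of 35 genes were under 0.05 in females (3 above and 5 below intact), which is 22.9% of them against 12.6% of all genes. Without female intact 421 and 422 this was 3 of 35 (Timm10, Timmdc1 and Htra2), 8.57% against 6.43% of all genes. In males 4 of 35 were under 0.05, all higher in GPER KO, which is 11.4% against 10.1% of all genes. The standard errors (SE) of the 35 differences within a sex ran from 0.05 to 0.25 on the log2 scale.

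**Figure D1:**
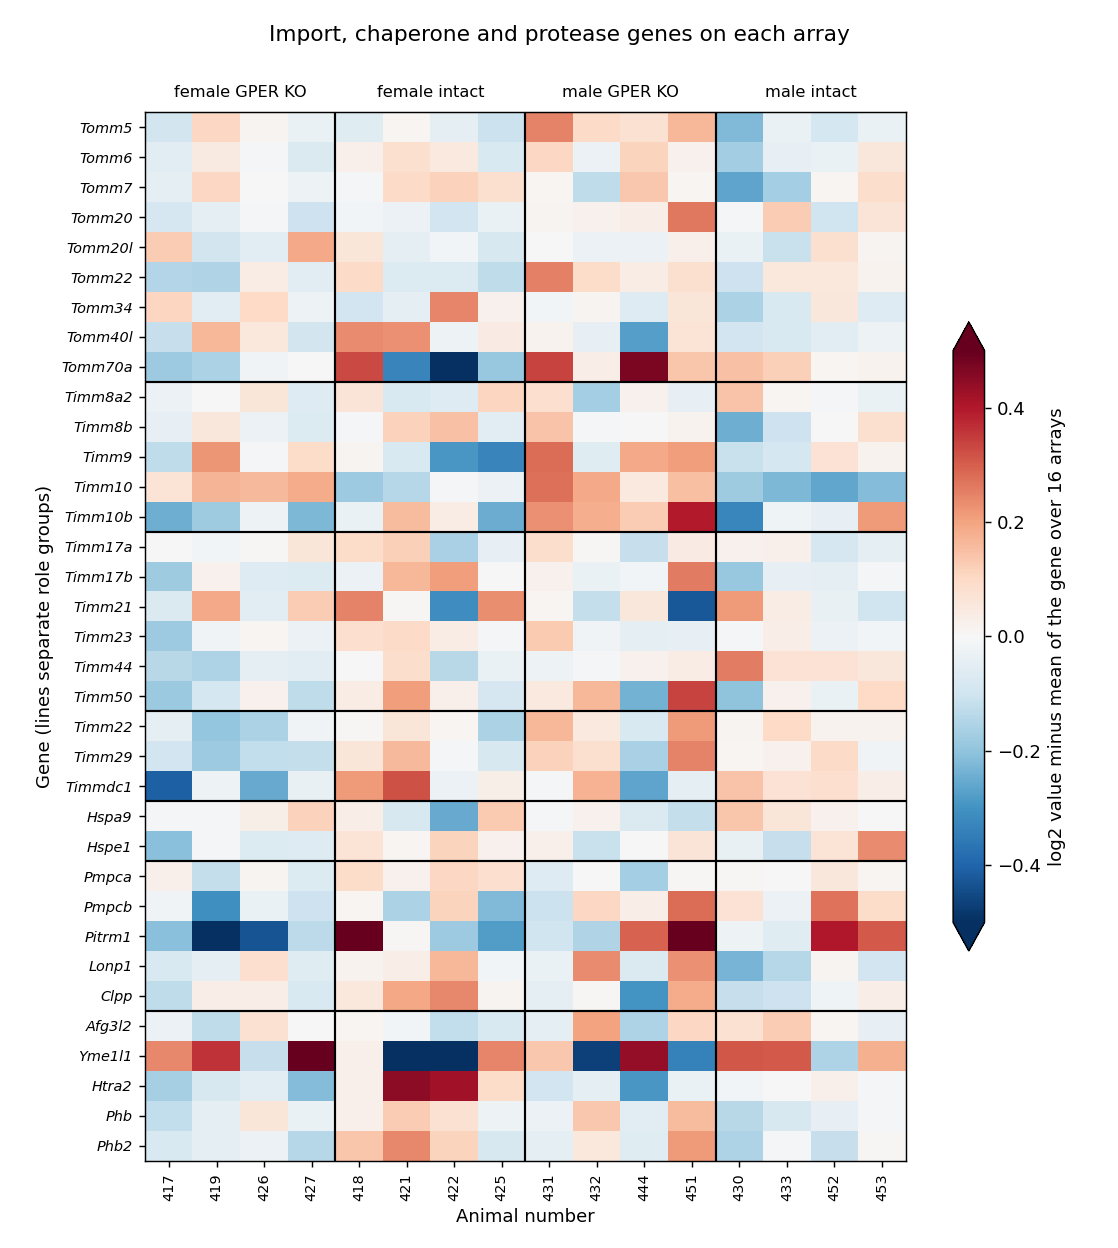
Each row is a gene and each column the array of 1 mouse, in 4 groups of 4, and the colour gives the log2 value minus the mean of that gene over 16 arrays. Values beyond 0.5 in either direction have the end colour of the scale. The row of Timm10 is red or near white on all 8 GPER KO arrays and blue or near white on all 8 intact arrays. The row of Htra2 shows the reverse, most strongly on female intact 421 and 422, with the male intact arrays near white.

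Small TIM chaperones work as ring-shaped assemblies in the intermembrane space, where TIM9 and TIM10 together hold carrier proteins on their way to TIM22. In all, 5 members of this family were measured. In males 4 of 5 lay above intact, with a median log2 difference of 0.18, and in females 2 of 5 did, against 56.5% and 41.2% of all genes. The mean deviation of the 5 genes from their own means ran from 0.03 to 0.20 on the male GPER KO arrays and from -0.14 to 0.01 on the male intact arrays, so those groups did not overlap. They overlapped in females, at -0.07 to 0.05 and -0.11 to -0.004. With Timm10 left out they overlapped in males too, at -0.02 to 0.18 in GPER KO and -0.13 to 0.07 in intact mice, and Timm8a2 lay below intact in both sexes.

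Timm10 had log2 values of 9.13, 9.23, 9.22 and 9.25 in female GPER KO and 8.88, 8.92, 9.05 and 9.03 in female intact cardiomyocytes. In males the values were 9.34, 9.25, 9.11 and 9.21 in GPER KO and 8.88, 8.84, 8.80 and 8.85 in intact cardiomyocytes. The lowest GPER KO value (9.11) was above the highest intact value (9.05), which held for 2 of the 35 genes, Timm10 and Htra2, and for 0.386% of all genes. In males Timm10 was 0.38 higher in GPER KO (log2, SE 0.06, adjusted p = 0.00373). In females it was 0.24 higher by the fitted means (SE 0.06) without passing the test over all genes (adjusted p = 0.118). The mean of both sexes was 0.31 higher (SE 0.04, adjusted p = 0.000621). The male and female differences were not told apart by the test of their difference, which was 0.15 (male minus female, SE 0.08, adjusted p = 0.514). Timm10 has 1 probe set, so no other probe set could be set beside it.

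Timm9, whose product pairs with that of Timm10, had a difference of 0.21 (SE 0.09, adjusted p = 0.367) in females and 0.18 (SE 0.09, adjusted p = 0.557) in males. Its values were 5.02, 5.36, 5.13 and 5.23 in female GPER KO and 5.16, 5.07, 4.85 and 4.82 in female intact mice, and these groups overlapped. A second, dimmer probe set of Timm9 gave 0.32 in females and -0.16 in males. Timm10b, a further small TIM that binds the TIM22 complex, had a difference of 0.28 in males (adjusted p = 0.328), or 0.18 without intact 430. Its female difference was -0.15, but -0.03 without intact 421 and 422. In males its values were 8.07, 8.02, 7.97 and 8.24 in GPER KO and 7.51, 7.82, 7.80 and 8.05 in intact mice, with intact 453 inside the GPER KO range. Timm8b had log2 differences of -0.07 in females, which was 0.0085 without intact 421 and 422, and 0.10 in males. Timm8a2, at percentile 4.9 of the probe sets, had -0.02 and -0.06, and -0.09 in females without intact 421 and 422.

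The sequences before the starts of Timm10 and Timm9 are shown because Timm10 was the called gene and Timm9 encodes its partner. They are the 250 bases before the RefSeq start of each gene in GRCm38.p6, read in the direction of transcription, with the letters CCGGAAG (found in sites of the GABP factor, on either strand) and CACGTG (an E-box) in capitals. Timm10 lies on the plus strand with the stretch chr2:84826771-84827020, and Timm9 on the minus strand with the stretch chr12:71136676-71136925.
Timm10: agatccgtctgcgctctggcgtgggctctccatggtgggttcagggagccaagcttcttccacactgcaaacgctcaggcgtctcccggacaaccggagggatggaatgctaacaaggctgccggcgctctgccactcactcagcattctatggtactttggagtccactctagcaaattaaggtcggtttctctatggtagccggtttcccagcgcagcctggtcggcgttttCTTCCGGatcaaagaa
Timm9: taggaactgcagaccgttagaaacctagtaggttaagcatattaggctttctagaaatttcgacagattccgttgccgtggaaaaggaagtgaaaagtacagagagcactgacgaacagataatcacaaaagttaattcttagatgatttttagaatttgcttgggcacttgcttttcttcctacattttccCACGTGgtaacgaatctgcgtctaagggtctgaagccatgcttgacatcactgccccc
The Timm10 stretch held CTTCCGG, the reverse strand form, 16 bases before the start. A further 2 matches began 13 and 16 bases after the start, overlapping each other, and an E-box began at 28, all outside the stretch shown. The Timm9 stretch held an E-box 58 bases before the start, and another began 1 base before the start and ran past the stretch. A match to GAANNTTC, described below and not put in capitals, began 197 bases before the start. Of the 35 genes, 29 had a RefSeq promoter window here, of 250 bases before to 50 bases after the start. CCGGAAG was in 16 of these 29 windows on either strand, 55.2% of them, against 9.93% of 27025 genes and 15.0% of 13605 genes that were also tested on the arrays. CACGTG was in 6 of 29 (20.7%), against 10.2% of the tested genes, GCANGCGC (the core of NRF1 sites) in 5 of 29 (17.2%), against 16.7%, and GAANNTTC (part of heat shock elements) in 2 of 29 (6.9%), against 7.7%. These letters were chosen after the sequences had been read, and a match is a description of the window.

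**Figure D2:**
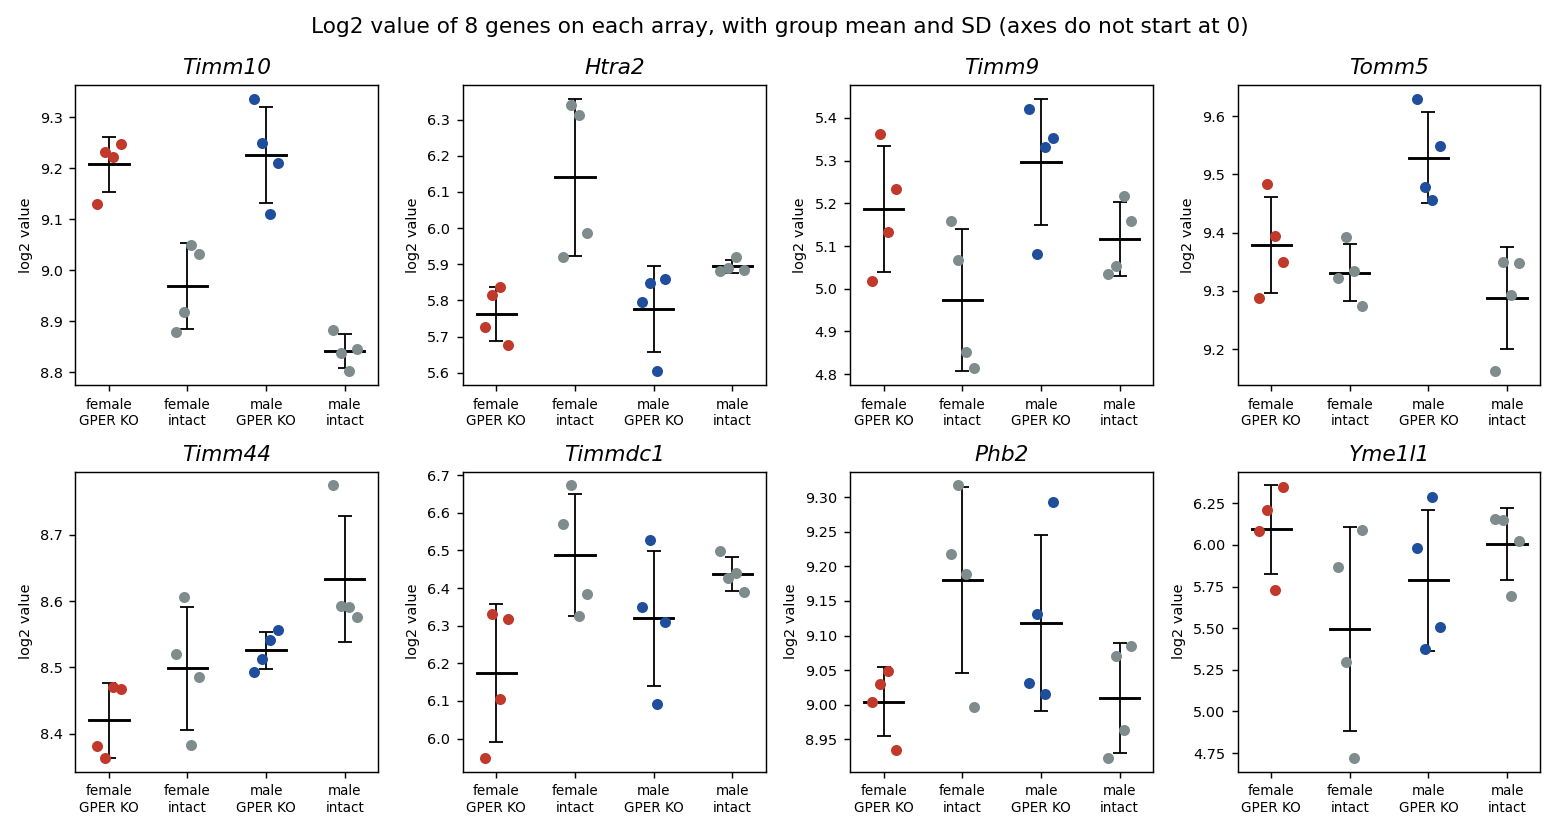
Points are the log2 values of 8 genes on each array, by group of 4 mice, with the group mean (long bar) and SD (whiskers), on axes that do not start at 0. Timm10 is higher and Htra2 lower on all GPER KO arrays than on all intact arrays, while in Yme1l1 and Timmdc1 the groups overlap.

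The TOM complex comprises receptors for incoming proteins (TOMM20, TOMM22, TOMM70), the channel, to which Tomm40l encodes a related protein, and small subunits (TOMM5, TOMM6, TOMM7). In males 9 of 9 Tomm genes lay above intact, with differences from 0.003 to 0.24 and a median of 0.09. In females 4 of 9 did. Of all genes, 56.5% lay above in males and 41.2% in females. The mean deviation of the 9 genes overlapped in males, at 0.003 to 0.11 in GPER KO and -0.10 to 0.01 in intact mice. The dimmest probe set of Tomm20 gave -0.09 in males. None of the 9 passed the test in either sex. Tomm5 came closest, with male values of 9.63, 9.48, 9.46 and 9.55 in GPER KO and 9.16, 9.35, 9.29 and 9.35 in intact cardiomyocytes, which did not overlap. The male difference was 0.24 (SE 0.06, adjusted p = 0.0957), whereas the female difference was 0.05 (SE 0.06), or 0.08 without intact 421 and 422.

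Tomm6 had a male difference of 0.10 (SE 0.06), or 0.06 without intact 430, and a female difference of -0.04, or 0.0018 without intact 421 and 422. Tomm40l had a female difference of -0.12 (SE 0.08), and its dimmer probe set gave -0.27 (SE 0.10) in females and 0.07 in males. Tomm20l, whose probe set is at percentile 45, had a female difference of 0.06 (SE 0.06). Tomm70a, the receptor for carrier proteins, gave 0.14 in females with its brightest probe set, but -0.16 without female intact 421 and 422, which had 5.99 and 5.59 against 6.65 and 6.13 in the other female intact mice. The dimmer probe set of Tomm70a gave 0.53 in females and -0.36 in males.

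TIM23 is the inner membrane channel for proteins with a presequence, and TIMM44 tethers the Hsp70 motor to it. Of the 6 genes of this group, 4 lay below intact in females and 2 in males, against 58.8% and 43.5% of all genes. None passed the test. Without intact 421 and 422, the others in females, Timm17a and Timm21, were below intact too, at -0.01 and -0.19. Timm44 had male values of 8.49, 8.51, 8.54 and 8.56 in GPER KO and 8.77, 8.59, 8.59 and 8.58 in intact mice, which did not overlap, with a difference of -0.11 (SE 0.06, adjusted p = 0.589). Without intact 430, the mouse at 8.77, the difference was -0.06. The 3 probe sets of Timm44 were below intact in both sexes. Timm17b, a channel subunit, had -0.16 in females and 0.13 in males (adjusted p = 0.403 and 0.626), and its other probe set had -0.14 and 0.12. The female difference was -0.06 without intact 421 and 422, and the male difference was 0.06 without GPER KO 451. Timm23, the channel itself, had log2 differences of -0.11 (females, adjusted p = 0.448) and 0.01 (males).

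TIM22 inserts carrier proteins into the inner membrane with TIMM29 at its side, whereas TIMMDC1 is an assembly factor of respiratory complex I. All 3 of these genes lay below intact in females, against 58.8% of all genes. Timm29 had female values of 7.85, 7.76, 7.82 and 7.82 in GPER KO and 8.004, 8.10, 7.93 and 7.86 in intact mice, which did not overlap, with a difference of -0.16 (SE 0.07, adjusted p = 0.376). Timmdc1 had 5.95, 6.33, 6.11 and 6.32 in female GPER KO and 6.57, 6.67, 6.33 and 6.38 in female intact mice. Its difference was -0.31 (SE 0.10, adjusted p = 0.224) in females and -0.12 (SE 0.10) in males, where it ran from -0.19 without GPER KO 432 to -0.04 without GPER KO 444, and the female groups overlapped around 6.33. Timm22 had a log2 difference of 0.05 in males and -0.08 in females, where it was -0.03 without intact 421 and 422.

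The matrix chaperones measured were Hspa9, the Hsp70 of the import motor, and Hspe1, the lid of the Hsp60 chaperonin. Hspe1 had female values of 9.55, 9.75, 9.69 and 9.69 in GPER KO and 9.82, 9.76, 9.87 and 9.77 in intact mice, which did not overlap, and its difference was -0.14 (SE 0.07, adjusted p = 0.433). In males the Hspe1 difference was -0.04 with the brighter and 0.11 with the dimmer probe set. Hspa9 had a log2 difference of 0.07 in females and -0.10 in males, and the female difference was -0.05 without intact 421 and 422. Its other probe sets gave -0.04 and -0.004 in females and -0.17 and -0.07 in males.

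Presequences are removed by the peptidase made of PMPCA and PMPCB, the cut peptides are degraded by PITRM1, and LONP1 and CLPP are the proteases of the matrix. All 5 of these genes lay below intact in females and 3 of 5 above intact in males, against 58.8% and 56.5% of all genes. Lonp1 had male values of 7.72, 7.99, 7.68 and 7.98 in GPER KO and 7.52, 7.61, 7.77 and 7.65 in intact mice, so the groups overlapped, with a difference of 0.20 (SE 0.08, adjusted p = 0.341). Its female difference was -0.08, or -0.03 without intact 421 and 422. Pitrm1 had the widest spread of this group, from 3.95 to 4.60 in female GPER KO and from 4.45 to 5.34 in female intact mice, and its difference of -0.43 had a standard error of 0.21 and was -0.23 without intact 418, the mouse at 5.34. Pmpca had a log2 difference of -0.11 in females (SE 0.05, adjusted p = 0.392) and -0.07 in males.

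The intermembrane protease HTRA2, the inner membrane proteases YME1L1 and AFG3L2 and the prohibitin ring of PHB and PHB2, which surrounds membrane proteases, keep the inner membrane in order. Htra2 was lower in all 8 GPER KO arrays than in all 8 intact arrays. Its values were 5.73, 5.81, 5.84 and 5.68 in female GPER KO and 5.92, 6.34, 6.31 and 5.99 in female intact mice. In males they were 5.80, 5.85, 5.60 and 5.86 in GPER KO and 5.88, 5.89, 5.92 and 5.88 in intact mice, where the gap between the groups (5.86 against 5.88) was small. Htra2 did not pass the test, with a female difference of -0.38 (SE 0.09, adjusted p = 0.103) and a male difference of -0.12 (SE 0.09, adjusted p = 0.735). The mean of both sexes was -0.25 (SE 0.06, adjusted p = 0.0666). Female intact 421 and 422 carried much of the female difference, which was -0.19 (adjusted p = 0.700) without them. The mean of both sexes was -0.15 (adjusted p = 0.195) without them. Htra2 passed in females only without intact 418 (-0.45, adjusted p = 0.0400) or without intact 425 (-0.43, adjusted p = 0.0413). The male difference was -0.06 without GPER KO 444. The probe set can match more than 1 transcript, and in RefSeq the gene overlaps Loxl3 and Aup1, so how much of its signal comes from Htra2 alone is uncertain. Htra2 is not alone in this. The names of the probe sets used for Pmpcb, Pitrm1, Hspe1, Timm17b and Tomm6, among others, also mark possible matches to further transcripts.

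Phb2 had a female difference of -0.18 (SE 0.07, adjusted p = 0.341) and a male difference of 0.11 (SE 0.07), and its second probe set gave -0.16 and 0.11. These were -0.10 without female intact 421 and 422 and 0.05 without male GPER KO 451. Phb had a log2 difference of -0.09 in females and 0.12 in males (SE 0.06 in both), and its second probe set gave -0.09 and 0.20. The female difference was -0.04 without intact 421 and 422. Yme1l1, named after its values were seen, had the widest spread, with 6.08, 6.21, 5.73 and 6.35 in female GPER KO and 5.87, 5.30, 4.72 and 6.09 in female intact mice. Its female difference of 0.60 (SE 0.25, adjusted p = 0.346) was 0.11 without intact 421 and 422, and its 3 probe sets were all above 0 in females and all below 0 in males. Afg3l2 had a log2 difference of 0.03 in females, or 0.01 without intact 421 and 422, and -0.02 in males.

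The list as a whole was read as counts and medians beside those of all genes, with no test. In females 24 of 35 genes lay below intact, with a median of -0.07, while 58.8% of all genes lay below with a median of -0.02. Without female intact 421 and 422 this was 26 of 35, with a median of -0.05, against 51.7% of all genes. In males 11 of 35 lay below, with a median of 0.04, while 43.5% of all genes lay below with a median of 0.01. The male median moved most with single GPER KO mice, to 0.01 without GPER KO 451, which had the highest value of its group for 18 of 35 genes, and to 0.08 without GPER KO 444, which had the lowest for 20 of 35. For the mean of both sexes, 18 of 35 lay below, with a median of -0.01, against 50.9% of all genes. Without female intact 421 and 422 this was 16 of 35, with a median of 0.006, against 47.8% of all genes. The average deviation of the 35 genes from their own means was -0.08 to -0.02 on female GPER KO arrays, -0.04 to 0.06 on female intact, -0.01 to 0.10 on male GPER KO and -0.04 to 0.03 on male intact arrays, and these ranges overlapped within each sex. Genes whose arrays did not overlap between the genotypes numbered 4 of 35 (11.4%) in females (Timm10, Timm29, Hspe1 and Htra2), against 5.69% of all genes, and 4 of 35 in males (Tomm5, Timm10, Timm44 and Htra2), against 6.21%.

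The sexes were compared directly through the difference of the genotype effect, male minus female. It lay above 0 for 27 of 35 genes, with a median of 0.13, while 62.5% of all genes lay above 0 with a median of 0.04. No gene of the list passed, nor did any of all genes (0%). Before adjustment 7 of 35 were under 0.05 (20.0%, against 11.0% of all genes), with Timm10b, Phb2, Timm17b, Lonp1, Phb and Tomm5 above 0 and Yme1l1 below. Without female intact 421 and 422, 0 of 35 were under 0.05, against 4.57% of all genes. Timm10b had the smallest unadjusted p of these, with a difference of 0.42 (SE 0.15, adjusted p = 0.426). Phb2 and Phb had 0.28 and 0.21, each with both probe sets on the same side. A group of 17 genes, 48.6% of the list against 34.0% of all genes, lay below intact in females and above it in males, and 4 were the other way round, Timm21, Hspa9, Afg3l2 and Yme1l1. Of these 4, Timm21 (-0.19) and Hspa9 (-0.05) lay below intact in females without intact 421 and 422. Without female intact 421 and 422 the median was 0.10, with 77.1% of the list and 56.8% of all genes above 0, and 17 genes (48.6%, against 27.5% of all genes) lay below intact in females and above it in males.

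**Figure D3:**
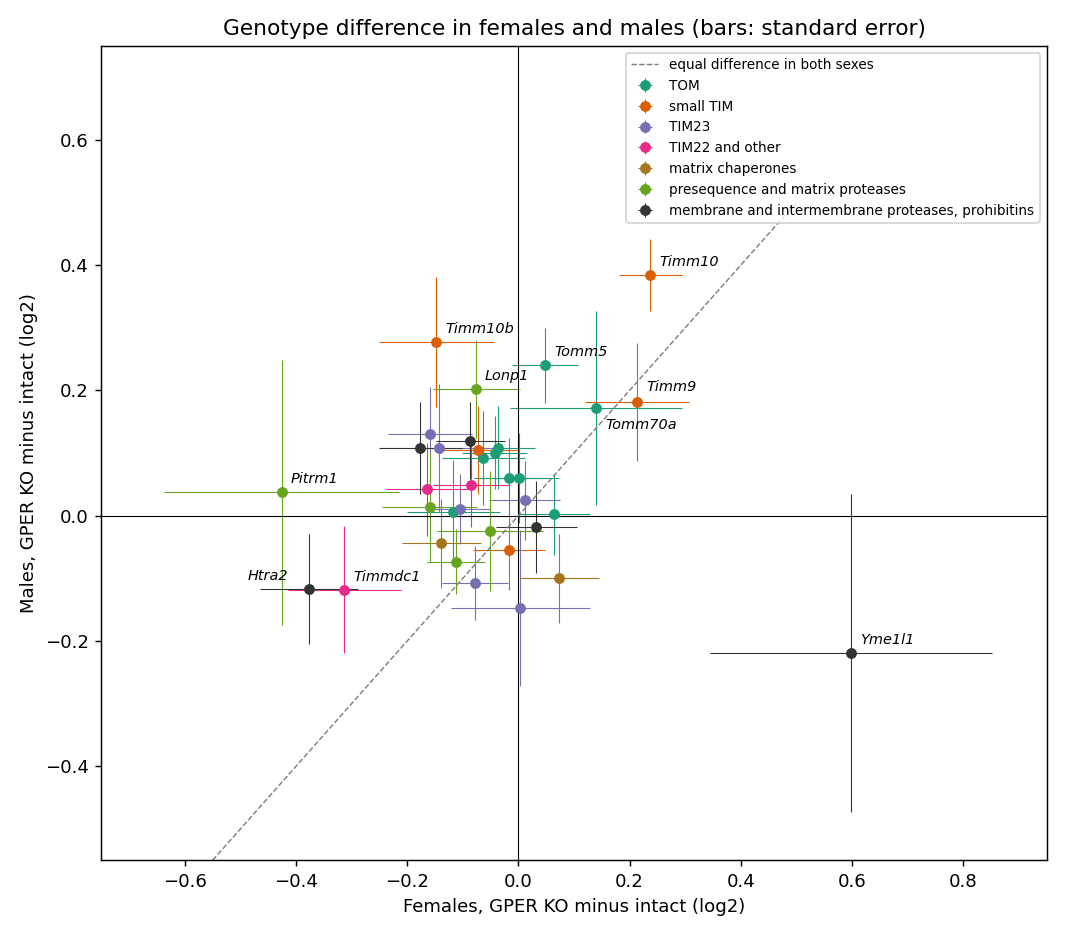
Each point is 1 of the 35 genes, with its log2 difference of GPER KO minus intact in females on the horizontal and in males on the vertical axis, coloured by role, with standard errors as bars and a dashed line where both are equal. Timm10 lies at 0.24 and 0.38, and 17 points lie to the upper left, below intact in females and above it in males.

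Among intact mice, none of the 35 genes passed the test of male minus female, against 0.579% of all genes, and 22 of 35 lay below 0, with a median of -0.02 that equalled the -0.02 of all genes. Before adjustment 5 genes were under 0.05, which is 14.3% against 17.5% of all genes, with Htra2 at -0.25, Tomm40l at -0.18, Phb2 at -0.17 and Timm10 at -0.13, lower in males, and Timm44 at 0.13, higher in males. Without female intact 421 and 422, 0 of 35 were under 0.05, against 9.46% of all genes, and Htra2 was at -0.06 and Phb2 at -0.10.

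**Figure D4:**
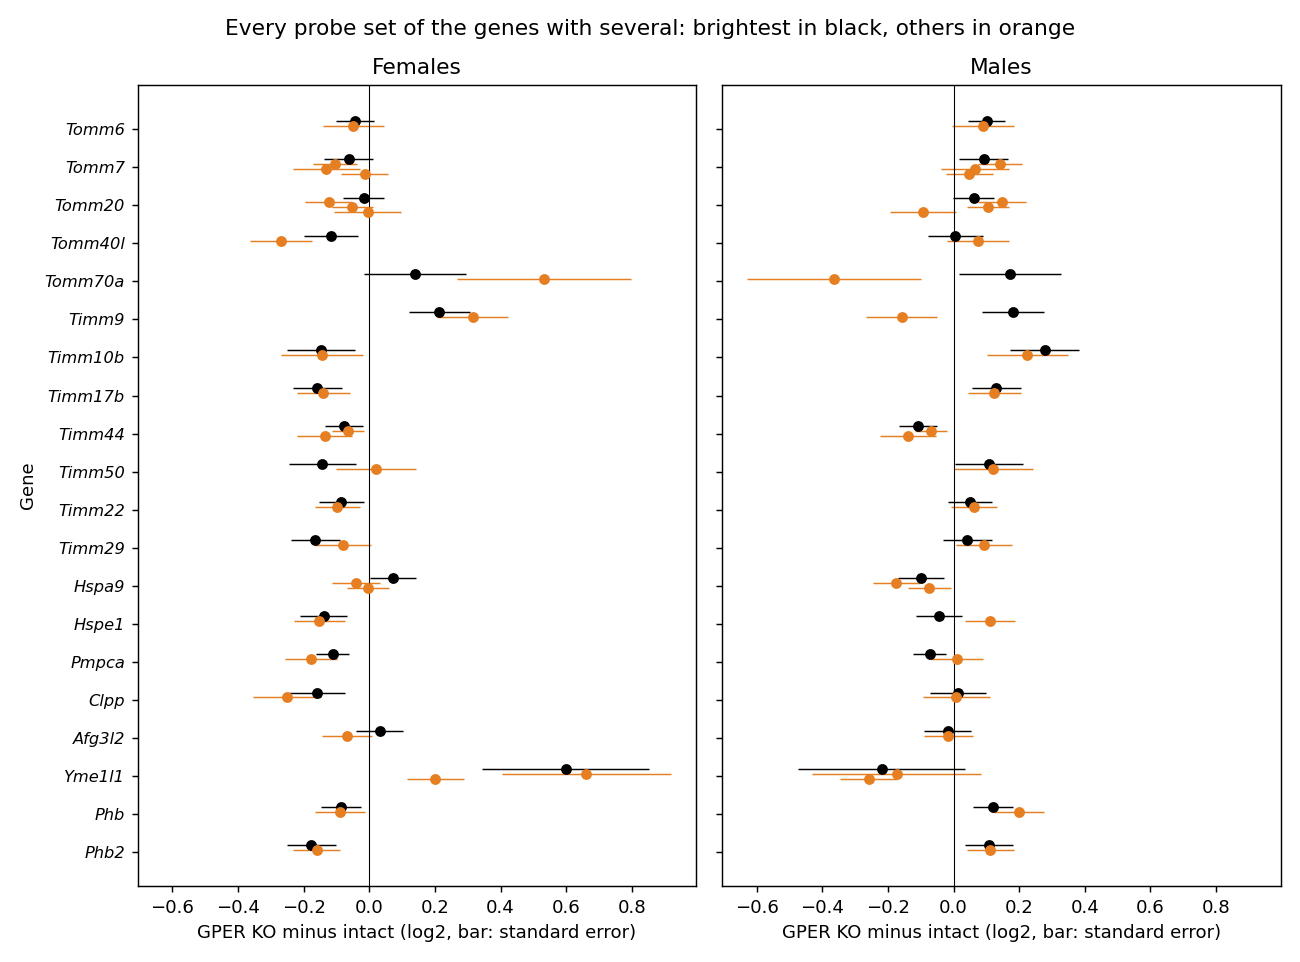
For the 20 genes with several probe sets, points give the log2 difference of GPER KO minus intact in females (left) and males (right) with standard errors, the brightest probe set in black and the others in orange. All probe sets of a gene lie on the same side of 0 for 17 of 20 genes in females and 15 of 20 in males, and the probe sets of Tomm70a and Timm9 part in males.

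Partner genes were also compared mouse by mouse, after the mean of each group had been removed, over 16 arrays. The prohibitins Phb and Phb2 varied together (Pearson r = 0.750, Spearman rho = 0.732), with permutation tests adjusted over 3 pairs of p = 0.0103 and p = 0.00659. The r was 0.680 without the 2 arrays farthest from the median of Phb, 0.645 in females and 0.836 in males. The peptidase subunits Pmpca and Pmpcb varied together too (r = 0.656, rho = 0.738, permutation p = 0.0249 and 0.00659 after adjustment), with 0.716 without the 2 farthest arrays, 0.758 in females and 0.565 in males. For Timm9 and Timm10 no relation passed the test (r = -0.220, rho = -0.20, permutation p = 0.496 and 0.531 after adjustment), with -0.447 without the 2 farthest arrays, -0.343 in females and -0.0634 in males. Over all 595 pairs of the 35 genes the median r was 0.142, and 63.7% of them were above 0. The permutation tests were made against no relation, not against the other pairs. They do not show that partners varied together more than other genes of the list.

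Other genes of the pathway, from a list of 38 partners, assembly factors, further proteases and stress regulators, were read from the same fit. Of 34 measured, 0 passed in females, in males, for the mean of both sexes or for the difference between the sexes. The shares of all genes that passed were 0.281%, 0.62%, 1.36% and 0%, so 0 of 34 is close to these shares. In females 25 of 34 lay below intact, 73.5% against 58.8% of all genes, with a median of -0.10, and 11 were under 0.05 before adjustment, 10 of them lower, which is 32.4% against 12.6% of all genes. Without female intact 421 and 422 this was 3 of 34, 8.82% against 6.43% of all genes. Among the 11 were Pink1, a kinase that marks damaged mitochondria (-0.29, adjusted p = 0.191), Mipep, a matrix peptidase (-0.21, adjusted p = 0.215), and Stoml2, a scaffold protein of the inner membrane (-0.18, adjusted p = 0.234). In males 23 of 34 lay above intact, 67.6% against 56.5% of all genes, with a median of 0.05. Before adjustment 3 were under 0.05, all higher, which is 8.82% against 10.1% of all genes. Chchd4, which brings small TIM proteins into the intermembrane space by oxidising them, had a male difference of 0.26 (SE 0.08, adjusted p = 0.168) and a female difference of 0.07. Atf5, a transcription factor of the mitochondrial stress response, had a male log2 difference of 0.40 (adjusted p = 0.321), and Grpel1, the exchange factor of the import Hsp70, one of 0.16 (adjusted p = 0.341).

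Most macrophage markers lay above intact in GPER KO mice of both sexes in these unsorted preparations. All 10 lay above intact in males, 6 of them past the test, against 56.5% and 0.62% of all genes. In females 9 of 10 lay above, none past the test, against 41.2% and 0.281% of all genes. The log2 of their summed level was 9.01 to 9.92 in male GPER KO, 8.55 to 9.09 in male intact, 8.84 to 9.21 in female GPER KO and 8.33 to 8.67 in female intact mice. These levels did not overlap between the genotypes in females, where 5.69% of single genes did not overlap. In males they did overlap, as GPER KO 451 had 9.01, inside the range of the male intact mice. No macrophage marker passed the test of the difference between the sexes, nor did any of all genes. All 10 endothelial markers were below intact in both sexes, against 58.8% of all genes in females and 43.5% in males, and none passed the test. Their summed levels were 9.04 to 9.49 in female GPER KO, 9.29 to 9.89 in female intact, 9.08 to 9.67 in male GPER KO and 9.28 to 10.02 in male intact mice. Of 8 fibroblast markers, 6 lay above intact in females and 4 in males, and of 3 measured red blood cell markers 0 were above in females and 2 in males, none past the test. The shares of all genes above were 41.2% in females and 56.5% in males. The summed level of the cardiomyocyte markers was 15.36 to 15.39 in GPER KO and 15.34 to 15.39 in intact females. In males it was 15.32 to 15.356 in GPER KO and 15.359 to 15.39 in intact mice, which did not overlap, though the gap was very small. Among single genes, 6.21% did not overlap in males. Of the 7 measured cardiomyocyte markers, 5 lay below and 2 above intact in males, against 43.5% and 56.5% of all genes, none past the test. The part of other cells in the differences above was not tested.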

How the data were processed

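RNA of ventricular cardiomyocytes of 16 mice was measured on 1 array each. The authors deposited log2 values per probe set, made with RMA and Partek per the labels, with no version given, and no scanner signals were used here. RMA usually corrects background, makes the distributions of the arrays equal and summarises probes, which can shrink small differences. No columns of comparisons made by the authors were used. Arrays carry no counts, and 4 arrays per group limit the precision.

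Of 45141 probe sets, 28898 carried 1 gene symbol, 551 several and 15692 none, and 28689 of the first were matched through Entrez identifiers to RefSeq (GRCm38.p6). The brightest probe set stood for a gene, and 5 probe sets shared by a gene described here and another gene were left out. The tests used limma 3.58.1 under R 4.3.3, with a mean for each of 4 groups over 16 arrays and moderated variances (eBayes), two-sided, with Benjamini-Hochberg adjustment over 17097 genes and a threshold of 0.05. The test was also run on simulated data with independent values on each array, and no result given here rests on that run. The labels do not say whether mice shared litters or days, name no batch, and give each mouse its own number, so no mice were paired. Pairs of genes were compared with permutation tests of 100000 resamples within groups (NumPy 2.4.6).

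The genes and lists were chosen with earlier results of these data known. Genes named with values were those that passed a test, those whose genotypes did not overlap within a sex, the 2 with the smallest unadjusted p per role group and sex, those with opposite probe sets under 0.05, and, of the wider list, 3 per sex. Values of a named gene in the other sex, and the other genes given a value, were added after they were seen. Alternatives were the mean of the probe sets, every probe set, a filter above percentile 40 on at least 4 arrays, repeated quantile normalization, centring, array weights, trend and robust eBayes, 1 sex alone, each array left out, and female intact 421 and 422 left out together. RefSeq promoters were matched for 29 genes.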

Additional observations from a re-analysis of the deposited data

Results flagged for a closer look

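In a group of 4 mice, a value was singled out where its gap to the nearest of the others, as a share of the range of the group, exceeded the usual limit of Dixon's test. Of 140 groups (35 genes in 4 groups), 4 were singled out, against about 7 expected by chance at 5%. Tomm20 was 10.53 in male GPER KO 451 and 10.28 to 10.30 in the other male GPER KO mice. Timm44 was 8.77 in male intact 430 and 8.58 to 8.59 in the other male intact mice. Timm22 was 6.96 in male intact 433 and 6.87 to 6.88 in the others, and Pmpca was 8.65 in male intact 452 and 8.591 to 8.598 in the others.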

How the results depend on the processing

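Over 770 alternative values for 30 differences of named genes, 761 kept their direction and their side of the threshold, 2 passed it and 7 turned sign. Many of the 770 could not turn sign. Leaving out an array of the other sex does not change a difference within a sex, nor do trend and robust eBayes or the fit of 1 sex alone. The values with every probe set hold the main probe set of each gene again, so these are not 770 separate checks. Timm10 stayed past the threshold in males and for the mean of both sexes under every alternative, with male adjusted p of 0.000765 to 0.0307 from limma, and short of it in females (0.0596 to 0.391). The 2 that passed were Htra2 in females without intact 418 (-0.45) and without intact 425 (-0.43), so that with 1 array left out the number of genes past the test was 0 to 1 in females and 1 to 2 for the mean of both sexes, where array weights also gave 2. With every probe set (62), 46 lay below intact in females, 21 in males, 33 for the mean of both sexes, 17 below 0 for the difference between the sexes and 39 for male minus female in intact mice. With 1 array left out, the number below intact in males was 10 to 17, and the medians ran from 0.00822 to 0.0785 in males, from 0.099 to 0.149 for the difference between the sexes (0.097 without female intact 421 and 422) and from -0.054 to -0.018 for intact mice. Signs turned for Hspa9 in females (-0.0507 without 421 and 422, -0.0404 and -0.0040 with its other probe sets), Hspe1 in males (0.0337 with the mean of its probe sets, -0.0948 to 0.0225 with 1 array left out, the latter without intact 453, and 0.11 with its other probe set) and Pmpca in males (0.0098 with its other probe set). Other small differences moved by over 1.5 times with 1 mouse left out: in females Tomm20l (0.015 without GPER KO 427 to 0.11 without GPER KO 419), Tomm40l (-0.08) and Timm23 (-0.06) without GPER KO 417, and Hspa9 (0.0027 without intact 422 to 0.13 without intact 425), and in males Timm22 (0.0082 without GPER KO 451 to 0.10 without GPER KO 444) and Pmpca (-0.035 without GPER KO 444). The cause was not tested. Comparisons of the partners Hspd1 with Hspe1, Clpp with Clpx and Timm8b with Timm13 were not run, since Hspd1, Clpx and Timm13 were not analysed here. With 4 arrays a group and standard errors of 0.05 to 0.25, small differences could not be told from 0.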
